A study of Mus musculus with 14 samples.

Results

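A set of 10 nuclear genes that control the mitochondrial genome was followed here in mouse liver: the transcription factors Tfam, Tfb1m and Tfb2m, the RNA polymerase Polrmt, the DNA polymerase subunits Polg and Polg2, and the upstream regulators Nrf1, Gabpa, Ppargc1b and Pprc1. They were chosen by symbol, and all 10 were among the 19505 named genes of the array, each with 1 row. Liver RNA came from 14 samples of male C57BL/6-background mice that were homozygous for floxed alleles of Prkaa1 and Prkaa2, the genes of the catalytic subunits alpha1 and alpha2 of AMP-activated protein kinase (AMPK). Feeding of a high-fat diet (60% of calories) began at 6 weeks of age. After 4 weeks, at 10 weeks of age, AAV8 with the hepatocyte-directed TBG promoter was given through the jugular vein at 1e11 genome copies per mouse, empty in the control group (6 samples) and with Cre in the knockout group (8 samples). Metformin, 50 mg/kg daily, followed for 3 weeks in both groups, which carried the floxed alleles alike, and the mice fasted for 16 h before the livers were taken. The labels give the age as 4 months. Cre is driven by TBG, so other liver cells were not targeted, and no label says whether every sample is a separate mouse: the p-values rest on the spread between samples, which may be partly technical.

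Mitochondrial DNA is transcribed by a dedicated RNA polymerase, encoded by Polrmt, which starts at promoters that TFAM bends and TFB2M helps to open; TFAM also packs the genome into nucleoids. DNA polymerase gamma, with the catalytic subunit POLG and the accessory subunit POLG2, copies it. The nuclear regulators NRF1 (nuclear respiratory factor 1) and GABP bind promoters of many genes for mitochondrial proteins, and coactivators of the PGC-1 family, among them the products of Ppargc1b and Pprc1, act with such factors. AMPK is known as an upstream activator of this programme, best described through the related coactivator gene Ppargc1a.

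The promoters of 3 of the genes are printed because Tfam and Tfb2m had the highest knockout differences of the 10 and Polrmt encodes the polymerase that works with them. RefSeq windows (GRCm38.p6), from 250 bases before to 50 bases after the start site, matched 9 of the 10 genes. Each window was searched on both strands for GCGCA, any base and then GCGC, a core of the NRF1 site, and for CCGGAAG, a core of the GABP site, and capitals mark the matches. The windows are chr10:71237995-71238294 for Tfam, chr1:179546227-179546526 for Tfb2m and chr10:79746532-79746831 for Polrmt, all on the minus strand and printed in the direction of transcription.
Tfam: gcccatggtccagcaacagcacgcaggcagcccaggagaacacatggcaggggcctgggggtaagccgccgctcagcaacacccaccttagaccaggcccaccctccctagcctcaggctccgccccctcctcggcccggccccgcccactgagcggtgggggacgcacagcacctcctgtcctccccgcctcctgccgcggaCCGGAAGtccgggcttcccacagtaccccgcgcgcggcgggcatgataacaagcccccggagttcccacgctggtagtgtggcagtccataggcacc
Tfb2m: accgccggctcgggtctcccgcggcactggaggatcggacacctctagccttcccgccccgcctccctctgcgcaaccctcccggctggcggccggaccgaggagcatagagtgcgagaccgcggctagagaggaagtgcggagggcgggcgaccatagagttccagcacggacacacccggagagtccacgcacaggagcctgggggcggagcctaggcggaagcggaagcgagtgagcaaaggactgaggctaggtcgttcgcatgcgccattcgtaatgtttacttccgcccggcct
Polrmt: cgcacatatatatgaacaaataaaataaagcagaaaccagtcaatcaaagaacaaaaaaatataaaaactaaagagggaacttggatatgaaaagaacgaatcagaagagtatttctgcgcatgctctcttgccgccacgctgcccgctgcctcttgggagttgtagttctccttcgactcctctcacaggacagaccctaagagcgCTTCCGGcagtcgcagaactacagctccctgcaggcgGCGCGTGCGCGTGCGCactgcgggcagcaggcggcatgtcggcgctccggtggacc
The GABP letters occurred in the windows of 5 of the 9 genes, Tfam, Polrmt, Polg, Polg2 and Gabpa itself, and in those of 9.93% of all 27025 genes with a window. The match began at position -47 from the start site in Tfam, -43 in Polrmt, -38 in Polg, -29 in Polg2 and -93 in Gabpa. These positions count from the start site of the window used. The Tfam and Polg windows lay wholly within the spans of their genes, and most of the Gabpa window did. The start site used for these genes is thus not the outermost one. The NRF1 letters occurred in 1 of the 9 genes, Polrmt, as overlapping matches from -6 and from 0, against 5.19% of all genes. Both motifs contain CG, and the windows of the 5 genes with the GABP letters held 16 to 26 CG pairs. The shares over all genes were not matched for base composition. The Tfb2m window held neither motif, which says only that these letters are not in it.

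The labels name no batches, but the arrays formed 2 sets, set 1 with control 1 to 3 and knockout 1 to 4 and set 2 with control 4 to 6 and knockout 5 to 8. Correlations over all rows were 0.988 to 0.994 within and 0.951 to 0.963 across the sets. Every difference below is therefore knockout minus control on the log2 scale from limma, adjusted for the set (n = 6 and 8), given ± SE, and the threshold is an adjusted p of 0.05 (Benjamini-Hochberg, all 19505 genes). Prkaa2 fell by 1.13 ± 0.08 (limma, adjusted p = 1.92e-06) and Prkaa1 fell by 0.67 ± 0.13 (limma, adjusted p = 0.0302). Knockout 7 and 8 carry the sample numbers of knockout 5 and 6 in their descriptions, and whether they are separate samples is not known; they were counted as separate. The fit called 137 of 19505 genes (0.702%), 84 higher (0.431%) and 53 lower (0.272%). That count was 44 to 91 without control 1, 2, 4 or 5 or knockout 1, 2, 3, 4, 5, 7 or 8. It was 93 to 132 without control 3, control 6 or knockout 6, and 67 with knockout 5 averaged with 7 and 6 with 8. Mean log2 levels over 8 hepatocyte markers were 12.5 to 13.1 on every array. In whole liver, fewer cells of a type and less RNA per cell cannot be told apart.

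None of the 10 genes passed the threshold, with or without the set term, where 0.702% of all genes passed with it (0.431% higher and 0.272% lower) and 0% without it. Differences ran from -0.12 for Polg to 0.30 for Tfam, 7 were above 0 and 3 below, and their median was 0.07 against 0.00 for all genes, of which 50.6% were above 0. At an unadjusted p under 0.05 there were 2 genes, Tfam and Tfb2m, both higher in the knockout, where 10.4% of all genes reached that level, 5.53% with a higher value in the knockout. No member had all knockout values outside the control values of the same set in both sets, a pattern seen in 1.31% of all genes (0.774% higher and 0.538% lower). Their SEs lay between 0.07 and 0.11, near the median of 0.10 over all genes. The 95% intervals of this fit reached from -0.27 (Polg) to 0.51 (Tfam), so a rise of any of the 10 genes by over 1.42-fold lay outside them. That bound holds for this fit alone. For Tfam the difference was 0.39 ± 0.15 in set 2 alone, and the SE was 0.55 without the set term.

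**Figure D1:**
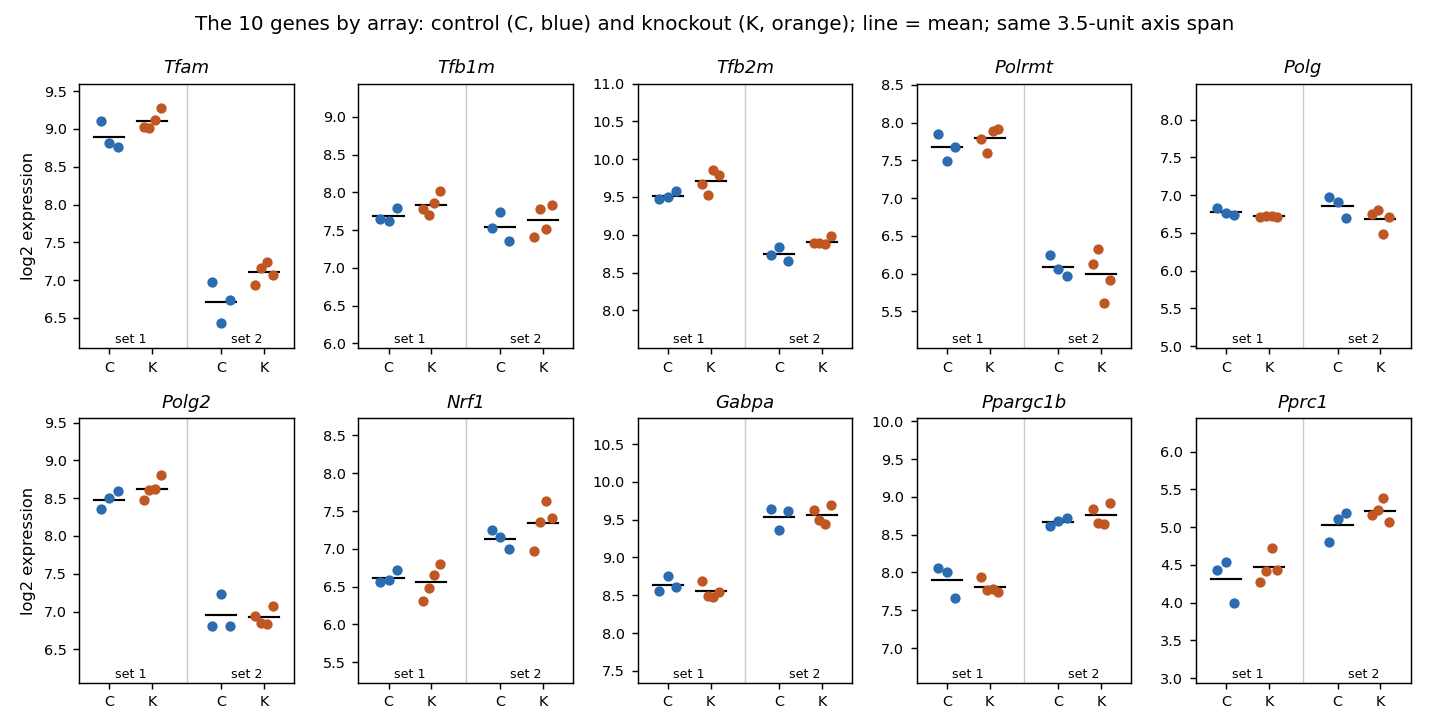
Log2 expression of the 10 genes on each array, in control (C, 3 arrays a set) and knockout (K, 4 arrays a set) samples of set 1 and set 2, with group means as lines and the same axis span in every panel. The mean step between the sets is wider than that between the groups for every gene but Polg, though little wider for Tfb1m (-0.17 against 0.12).

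Tfam, the packaging and promoter-binding factor, had the largest difference. Its log2 values in set 1 were 9.11, 8.81 and 8.76 in control 1 to 3 and 9.03, 9.01, 9.12 and 9.27 in knockout 1 to 4. In set 2 they were 6.97, 6.43 and 6.73 in control 4 to 6 and 6.93, 7.17, 7.25 and 7.07 in knockout 5 to 8. Thus 5 of 8 knockout samples lay above every control of their own set (9.89% of all genes had at least 5), and the groups overlapped in both sets through control 1 and control 4. The difference was 0.30 ± 0.10, or 1.23-fold (95% interval 1.07 to 1.42; limma, adjusted p = 0.207; unadjusted p = 0.00566). With knockout 5 averaged with 7 and 6 with 8 it was 0.29 ± 0.10 (limma, adjusted p = 0.332). It was 0.22 ± 0.12 in set 1 alone and 0.39 ± 0.15 in set 2 alone. By unadjusted p Tfam stood at place 529 of 19505 genes.

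The controls that were high for Tfam within their sets, control 1 and control 4, were also the lowest arrays of their sets for the markers of liver endothelium. The knockout samples were mixed. Knockout 4, the highest for Tfam in set 1, was low for these markers, 0.31 below the control mean of its set. By contrast knockout 7, the highest for Tfam in set 2, was also the highest of its set for them, 0.39 above the control mean, and knockout 1, lowest of the knockout samples for the markers at 0.38 below that mean, had a Tfam value of 9.03, under its group mean of 9.11. The mean over all 9 measured markers lay 0.76 below the control mean of its set in control 1 and 0.46 below it in control 4. The summed level of the 9 markers ran from 1337 to 4303 in control and from 1799 to 4528 in knockout samples. The lowest log2 value of the 9 was 4.06, for Stab1 in a control sample, below every array median (5.73 to 5.87). The lowest knockout value of Stab1 was 4.40, and its set 2 minus set 1 gap, averaged over the groups, was -3.52. Stab1 was thus low in set 2 in both groups, which limits the endothelial mean there. Whether Stab1 exceeded background in set 2 cannot be read from these values. Between the groups 0 of the 9 endothelial markers passed, 5 differences were above 0, and their median was 0.07, against 0.702% called and 50.6% above 0 among all genes. Without control 1 and control 4 the Tfam difference was 0.42 ± 0.09 (limma, adjusted p = 0.0875). As both are the highest Tfam controls of their sets, leaving them out had to raise this value, which is no independent support for it. The 9 Kupffer cell markers were likewise lowest among the controls of each set in control 1 and control 4, by 0.55 and 0.29 below the control mean of the set. So were the 6 lymphocyte markers, by 0.28 and 0.14. Among the controls the stellate cell markers were lowest in control 1 and control 5, and the bile duct markers in control 2 and control 4. The hepatocyte markers were lowest in control 2 and control 5. The part of the markers in the Tfam values was not tested.

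Tfb2m, the factor that helps the polymerase to open promoters, had the second highest difference and, of the 10, the differences closest to each other in the sets. Its log2 values in set 1 were 9.47, 9.51 and 9.58 in control 1 to 3 and 9.67, 9.52, 9.85 and 9.79 in knockout 1 to 4. In set 2 they were 8.73, 8.84 and 8.65 in control 4 to 6 and 8.90, 8.89, 8.88 and 8.98 in knockout 5 to 8. All knockout samples except knockout 2 lay above every control of their set, 7 of 8, which at least 7 of 8 did for 2.18% of all genes. The difference was 0.18 ± 0.07, or 1.13-fold (95% interval 1.03 to 1.25; limma, adjusted p = 0.327; unadjusted p = 0.0171). It was 0.19 in set 1 and 0.17 in set 2.

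Tfb1m, a relative of Tfb2m known as a methyltransferase of the small mitochondrial ribosomal RNA, was at 0.12 ± 0.09 (95% interval -0.07 to 0.31; limma, adjusted p = 0.701). Its values overlapped in both sets: 7.62 to 7.79 in control and 7.70 to 8.02 in knockout samples of set 1, and 7.36 to 7.74 and 7.41 to 7.83 in set 2. Polrmt, the RNA polymerase itself, was at 0.01 ± 0.11 (95% interval -0.22 to 0.24; limma, adjusted p = 0.986). Its set 1 values were 7.50 to 7.85 in control and 7.60 to 7.92 in knockout samples, and its set 2 values were 5.97 to 6.25 and 5.61 to 6.33. The knockout samples of set 2 thus enclosed the control range of Polrmt.

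The catalytic subunit gene of DNA polymerase gamma, Polg, was the lowest of the 10 at -0.12 ± 0.07, or 0.922 of the control level (95% interval 0.831 to 1.02; limma, adjusted p = 0.622). Its log2 values were 6.83, 6.77 and 6.74 in control 1 to 3 and 6.72, 6.73, 6.72 and 6.71 in knockout 1 to 4. In set 2 they were 6.97, 6.91 and 6.70 in control 4 to 6 and 6.75, 6.80, 6.48 and 6.71 in knockout 5 to 8. All knockout values of set 1 lay below the controls, by small steps, and in set 2 only knockout 7 did, 5 of 8 in all (8.76% of all genes had at least 5). Polg2, which encodes the accessory subunit, was at 0.06 ± 0.09 (95% interval -0.13 to 0.25; limma, adjusted p = 0.895). Its values were 8.35 to 8.59 in control and 8.47 to 8.81 in knockout samples of set 1, and 6.80 to 7.23 and 6.84 to 7.08 in set 2.

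Among the nuclear regulators, Gabpa and Ppargc1b differed least between the groups. Gabpa, the DNA-binding subunit gene of GABP, was at -0.03 ± 0.07 (95% interval -0.19 to 0.13; limma, adjusted p = 0.946), and Ppargc1b, a PGC-1 family coactivator gene known for roles in liver fat metabolism, at -0.00 ± 0.08 (95% interval -0.18 to 0.17; limma, adjusted p = 0.996). Nrf1 was at 0.08 ± 0.11 (95% interval -0.15 to 0.30; limma, adjusted p = 0.887), with knockout values of 6.32 to 6.79 around control values of 6.55 to 6.71 in set 1, and 6.97 to 7.64 against 7.00 to 7.25 in set 2. Pprc1, another gene of the family, was at 0.16 ± 0.10 (95% interval -0.05 to 0.38; limma, adjusted p = 0.641). It was also dim: the control mean of 4.68 and the knockout mean of 4.84 lay below every array median (5.73 to 5.87), and whether its signal exceeded background cannot be read from these values. Gabpa ran from 8.56 to 8.75 in control and 8.48 to 8.69 in knockout samples of set 1, and from 9.37 to 9.64 and 9.44 to 9.70 in set 2. Ppargc1b ran from 7.66 to 8.06 in control and 7.75 to 7.94 in knockout samples of set 1, and from 8.62 to 8.72 and 8.64 to 8.92 in set 2.

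**Figure D2:**
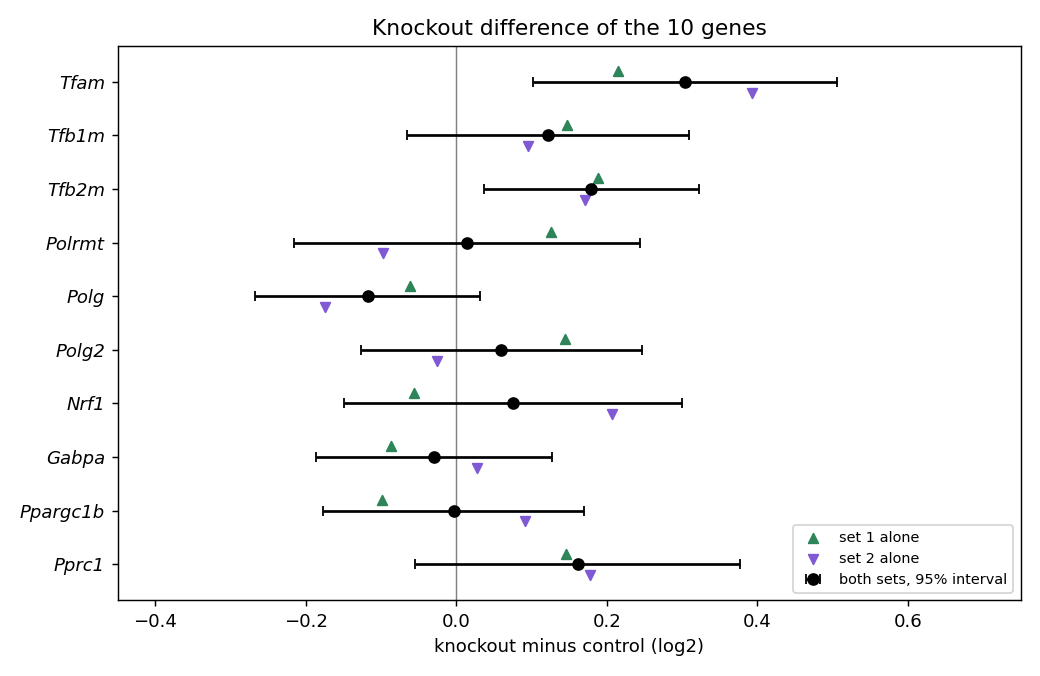
Knockout minus control (log2) of the 10 genes with both sets in the fit (black, 95% interval) and in each set alone (triangles). The intervals of Tfam and Tfb2m lie above 0 and the other 8 include 0, before any adjustment for the number of genes tested.

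The knockout difference had the same sign in both sets for 5 of the 10 genes, Tfam, Tfb1m, Tfb2m, Polg and Pprc1, against 55.3% of all genes. It was above 0 in set 1 and below 0 in set 2 for Polrmt (0.13 and -0.10) and Polg2 (0.14 and -0.03). The reverse held for Nrf1 (-0.06 and 0.21), Gabpa (-0.09 and 0.03) and Ppargc1b (-0.10 and 0.09). The interaction of knockout and set was past the threshold for 0 of the 10 genes and for 0 of all genes in limma, and at an unadjusted p under 0.05 for 0 of the 10 and for 4.83% of all genes. The largest was that of Nrf1, set 2 minus set 1, at 0.26 ± 0.21 (limma, adjusted p = 0.998).

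Between the sets, 5 of the 6 genes of the transcription and replication machinery were lower in set 2, all but Polg, and the 4 nuclear regulators were higher. As the sets were found from these same arrays, the gaps are a description with no test. Set 2 minus set 1, averaged over the groups, was -2.09 for Tfam, -1.69 for Polrmt, -1.62 for Polg2, -0.79 for Tfb2m and -0.17 for Tfb1m, with Polg at 0.02. It was 0.65 for Nrf1, 0.73 for Pprc1, 0.86 for Ppargc1b and 0.96 for Gabpa. Of all genes 62.8% were higher in set 2, and their median gap was 0.11. Over all genes 10.8% had a gap over 1 in size, as did 3 of the 10, and 1.05% had a gap larger in size than that of Tfam. After quantile normalization or median centring the signs held for 9 of the 10, and Polg turned to -0.06 and -0.08. For Tfam the gap between the sets was thus several times its knockout difference, and in a fit without the set term its SE was 0.55 in place of 0.10.

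**Figure D3:**
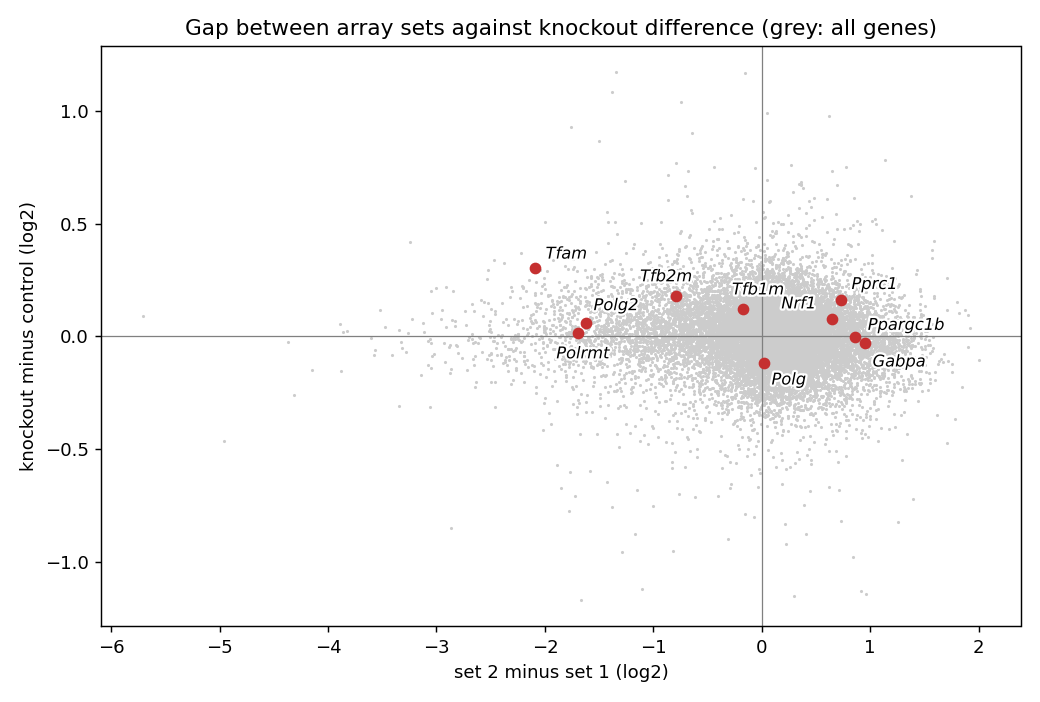
Set 2 minus set 1 (log2, x axis) against knockout minus control (log2, y axis) for all 19505 named genes (grey) and the 10 genes (red, labelled). Tfam, Polrmt and Polg2 lie left of -1 on the x axis, while all 10 lie between -0.12 and 0.30 on the y axis.

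Other genes of the pathway fell on both sides of this gap, list by list. Of 11 other nuclear regulators 10 were higher in set 2 (9 after quantile normalization or median centring). Of 16 genes classically described as NRF1 or GABP targets, such as the cytochrome oxidase subunit gene Cox4i1 (gap -2.06) and the protein import receptor gene Tomm20 (-1.70), 16 were lower in set 2 (15 after quantile normalization). Of 23 other genes for mitochondrial transcription and RNA processing 17 were lower (15 after quantile normalization), among them the elongation factor gene Tefm (-1.30). In the remaining lists 9 of 14 replication and maintenance genes and 6 of 12 genes for nucleotide supply were lower in set 2.

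In the knockout comparison the counts over the wider pathway were near those of all genes. Of 76 measured genes in 5 lists 0 passed the threshold in limma, against 0.702% of all genes. At an unadjusted p under 0.05 there were 6 (7.89%), 4 higher and 2 lower, against 10.4% of all genes. Differences were above 0 for 42 of the 76, against 50.6% of all genes, and their median was 0.01. In the replication and maintenance list (14 measured, 8 above 0, median 0.03) the smallest p-values were those of the flap endonuclease gene Fen1 at 0.19 ± 0.11 (limma, adjusted p = 0.577) and the helicase gene Twnk at 0.25 ± 0.16 (limma, adjusted p = 0.644). In the transcription and RNA processing list (23 measured, 14 above 0, median 0.03) they were those of Rexo2, an exonuclease for short RNA, at 0.29 ± 0.07 (limma, adjusted p = 0.0878) and Fastkd1, of a family of mitochondrial RNA regulators, at -0.39 ± 0.11 (limma, adjusted p = 0.127). Rexo2 was at 0.34 in set 1 and 0.24 in set 2, and Fastkd1 at -0.25 and -0.53. The single-strand binding protein gene Ssbp1 was at 0.07 ± 0.08 and Tefm at 0.03 ± 0.11.

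In the list for deoxynucleotide supply (12 measured, 7 above 0, median 0.03) the smallest p-values were those of Rrm1, a ribonucleotide reductase subunit gene, at 0.24 ± 0.13 (limma, adjusted p = 0.544) and the pyrimidine nucleotide carrier gene Slc25a33 at 0.22 ± 0.13 (limma, adjusted p = 0.627). Among the other nuclear regulators (11 measured, 4 above 0, median -0.06) they were those of Gabpb1, which encodes the GABP subunit that pairs with the Gabpa product, at 0.24 ± 0.10 (limma, adjusted p = 0.375) and Perm1, a muscle-enriched regulator, at -0.13 ± 0.09 (limma, adjusted p = 0.703). Fen1 (means 4.87 in control and 5.07 in knockout samples) and Perm1 (4.91 and 4.78) lay below every array median, like Pprc1, and the same limit holds for them. Among the NRF1 and GABP targets (16 measured, 9 above 0, median 0.01) they were those of Alas1, the first enzyme of haem synthesis, at 0.29 ± 0.10 (limma, adjusted p = 0.261) and the import receptor gene Tomm70a at 0.15 ± 0.07 (limma, adjusted p = 0.474). Ppargc1a, one of the other nuclear regulators, was at -0.13 ± 0.13 (limma, adjusted p = 0.808), with -0.29 in set 1 and 0.03 in set 2. Genes carried by mitochondrial DNA were sought by 15 symbols, of which 0 were among the named genes, so they were not analysed here.

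**Figure D4:**
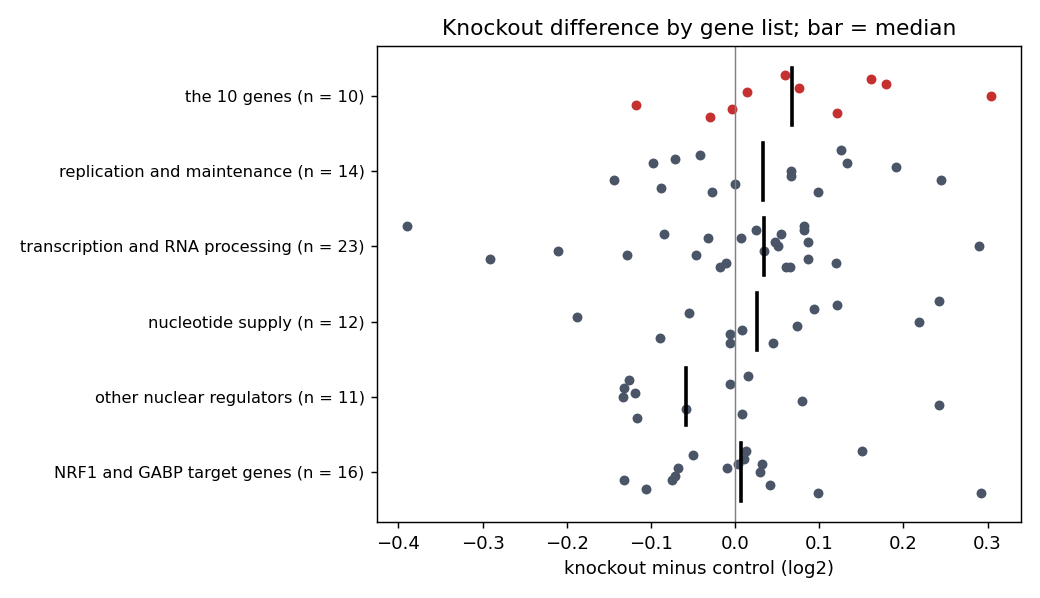
Knockout minus control (log2) of each measured gene in the 10 followed genes (red) and in 5 related lists (grey), with the list median as a bar. Medians lie between -0.06 and 0.07, and every point lies between -0.39 and 0.30.

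The genes whose pattern over the 14 arrays was most like each of the 10 were sought by Pearson correlation of values centred within sets. For Tfam they were Nifk (r = 0.91) and Trmt12 (r = 0.88), and for Tfb2m Srsf1 (r = 0.92) and Cyp4a10 (r = 0.88). They were Fam209 and Cyth1 for Tfb1m, Mucl3 and Cd70 for Polrmt, Dnal4 and Dtd1 for Polg, and Olfr380 and Wfdc13 for Polg2. For the regulators they were Med4 and Noa1 for Nrf1, Vmn2r89 and Yes1 for Gabpa, Lalba and Olfr1351 for Ppargc1b, and Gnb3 and Scrg1 for Pprc1. The highest r of the 10 genes ran from 0.84 to 0.92, and the median of the highest r over all genes was 0.89, so matches of this closeness were usual in these arrays. None of the 10 genes was among the matches of another, and 0 of these 20 genes passed the knockout threshold, which at 0.702% of all genes says nothing particular about them.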

How the data were processed

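RNA was labelled with the GeneChip WT PLUS kit and read on Affymetrix arrays, per the labels' protocols. The deposited values are log2 expression: RMA and Partek are listed, with no version, in the submitters' processing notes, and the range of 2.13 to 13.8 fits a log2 scale. Array data give no read depth, and the number of arrays limits the precision. Of 22206 rows, 19572 had exactly 1 symbol in the platform annotation, and 55 genes had several, of which that with the highest mean was kept, leaving 19505 genes with no filter on level. Array sets were found by average-linkage clustering of 1 minus the Pearson correlation. The linear model held group and set (11 residual degrees of freedom) and was fitted in limma 3.58.1 under R 4.3.3 with moderated variances, after the script had been tested on simulated data. In their description field, knockout 7 and 8 bear the sample numbers of knockout 5 and 6. No arrays held the same values, but repeat arrays of a sample would differ too, so whether these are separate samples is not known. They were counted as 8 samples, with averaging of each pair as an alternative.

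The members, the gene lists, the set term, the rule for named genes and the alternatives were chosen with earlier results of these data known. The text names all members, the targeted genes, up to 4 genes per related list past the threshold or otherwise the 2 with the smallest p, and the 2 genes most like each member, predicted genes left out. Ssbp1, Tefm, Cox4i1, Tomm20, Stab1 and Ppargc1a were named after their values were seen. Alternatives were each set alone, arrays left out, other scalings, a filter on dim genes, other variance settings, the replicate number as a block and other handling of rows.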

Additional observations from a re-analysis of the deposited data

Results flagged for a closer look

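The Polg value of knockout 7, 6.48, stood apart from the other knockout samples, of which the nearest was 6.71. The gap was 0.726 of the range of the 8 samples, above Dixon's critical value for 8 samples. It was the only such value in 40 comparisons of the 10 genes within control, knockout and the knockout samples of each set. Chance flags about 1 in 20 groups. Among the knockout samples of its own set alone, knockout 7 was not flagged for Polg. The control and knockout groups pooled both array sets, and a wide step between the sets makes an array hard to flag there. Polg had the smallest step of the 10 genes (0.02), so the pooled comparisons were not equally able to flag every gene. Without knockout 7 the Polg difference was -0.08 ± 0.07 (limma, adjusted p = 0.758) in place of -0.12 ± 0.07.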

How the results depend on the processing

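None of the 10 genes passed the threshold under any of the alternatives tried. The smallest adjusted p was 0.0875, for Tfam in limma without control 1 and control 4, and the range for Tfam over its alternatives was 0.0875 to 1. Tfam lay between 0.22 and 0.42, Tfb2m between 0.16 and 0.21, Tfb1m between 0.07 and 0.17 and Pprc1 between 0.09 and 0.21, and Polg stayed negative. With 1 array left out in turn Polrmt ran from -0.038 to 0.081, Gabpa from -0.075 to 0.0010 and Ppargc1b from -0.046 to 0.042, each turning sign. In set 1 alone Nrf1 was -0.056, and in set 2 alone Polrmt was -0.10, Polg2 -0.025, Gabpa 0.027 and Ppargc1b 0.091. Without control 1 and control 4 Polg2 was -0.0085 and Ppargc1b 0.021, and without knockout 7 and 8 Nrf1 was -0.022. With the replicate number as a block beside the set (4 residual degrees of freedom) Polg2 was -0.0011 and Nrf1 -0.046. The causes of these turns were not tested.

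The count of 137 genes was 0 without the set term (655 at an unadjusted p under 0.05), 2 in set 1 and 2 in set 2 alone, 44 to 132 with 1 array left out, 26 without control 1 and control 4, 12 without knockout 7 and 8, and 67 with knockout 5 averaged with 7 and 6 with 8. It was 223 with the filter on dim genes, which left out Pprc1, 325 with trend and robust variances, 2 with the replicate block, and 18 and 242 at thresholds of 0.01 and 0.1. Same-numbered arrays shared only a number in the labels, which name no pairing. The correlations of their deviations from group and set means were 0.02 to 0.09, which cannot decide whether samples were paired. Control 4 and knockout 4 also lay in different sets. The array values limit the precision to the SEs given, and background levels are not known here.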

Other observations

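The gap between the array sets also moved with the genomic length of genes. Over all 19505 genes the Spearman rho of genomic length and gap (set 2 minus set 1) was 0.22, and 0.31 over the 12383 genes whose higher group mean was at least 5; genes are not independent replicates, and rho is a description. The genes with the lowest gaps among the 10 had short spans on GRCm38.p6, 12861 bases for Tfam, 10480 for Polrmt and 11334 for Polg2. Nrf1 and Ppargc1b, higher in set 2, span 105474 and 109312 bases, whereas Gabpa and Pprc1, also higher in set 2, span 28893 and 16384. Tfb2m and Tfb1m, lower in set 2, span 18254 and 38547 bases, and Polg, with a gap near 0, spans 21681, so the order of the spans is not that of the gaps. The part of gene length in the gap was not tested.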
